A study of Ovis aries with 32 samples.

Results

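Sheep perirenal preadipocytes placed in differentiation medium differed widely in RNA of adiponectin (ADIPOQ), the hormone that mature adipocytes secrete. That value was used here to sort the resulting cultures. No measure of lipid or of the share of converted cells was available here. The 16 differentiated libraries of the series were ranked by the value of the ADIPOQ transcript, and the 8 highest were set beside the 8 lowest. These 16 are part of 32 libraries in all, the other 16 being undifferentiated preadipocytes, which serve as the background for each value below. The 2 sets were therefore chosen by a measured value of the same libraries. Differences between them are given as a description, with no test, and ADIPOQ itself is given only as the sorting value. Tests come only from comparisons that the sample labels define, namely differentiated against undifferentiated, growth-restricted against control, and male against female.

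The cells came from the fat around the kidney of near-term sheep fetuses of Columbia-Rambouillet crossbred ewes, each carrying 1 fetus. Control fetuses were male (MC before and MCD after differentiation) or female (FC and FCD). Growth-restricted fetuses, whose ewes had been held at high ambient temperature for part of pregnancy so that the placenta became insufficient, were male (MFGR and MFGRD) or female (FFGR and FFGRD). Each of the 8 groups had 4 libraries. The composition and duration of the differentiation medium, and which animal each library came from, were not given in the sources used here, so p-values measure only the spread between libraries, which may be in part technical. The high set held 4 MCD, 1 FCD, 1 MFGRD and 2 FFGRD libraries, and the low set held 0 MCD, 3 FCD, 3 MFGRD and 2 FFGRD libraries. Within MCD no comparison between the sets was possible, and differences within the other 3 groups are given where they matter.

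Fat cell formation in culture is usually started with a hormone mixture that includes a glucocorticoid and agents that raise cyclic AMP or act as insulin does. A first layer of genes answers these hormones directly, through the glucocorticoid receptor and CREB. A later layer depends on the nuclear receptor PPARG and on CEBPA, which together switch on the proteins that take up fatty acids, build triglyceride and coat the lipid droplet. In bulk RNA a library with less of a late transcript may hold fewer converted cells or converted cells with less of that RNA, and these cannot be told apart.

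ADIPOQ ran from 1233 to 13421 normalized units in the high set and from 8.59 to 1160 in the low set, against 0 to 216 (median 11.7) in the 16 preadipocyte libraries. The last library of the high set, MCD replicate 1 (1233), and the first of the low set, FFGRD replicate 2 (1160), differed by a factor of only 1.06, while the 6 highest libraries lay between 6933 and 13421. The lowest library, FCD replicate 4 (8.59), lay below the preadipocyte median.

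**Figure D1:**
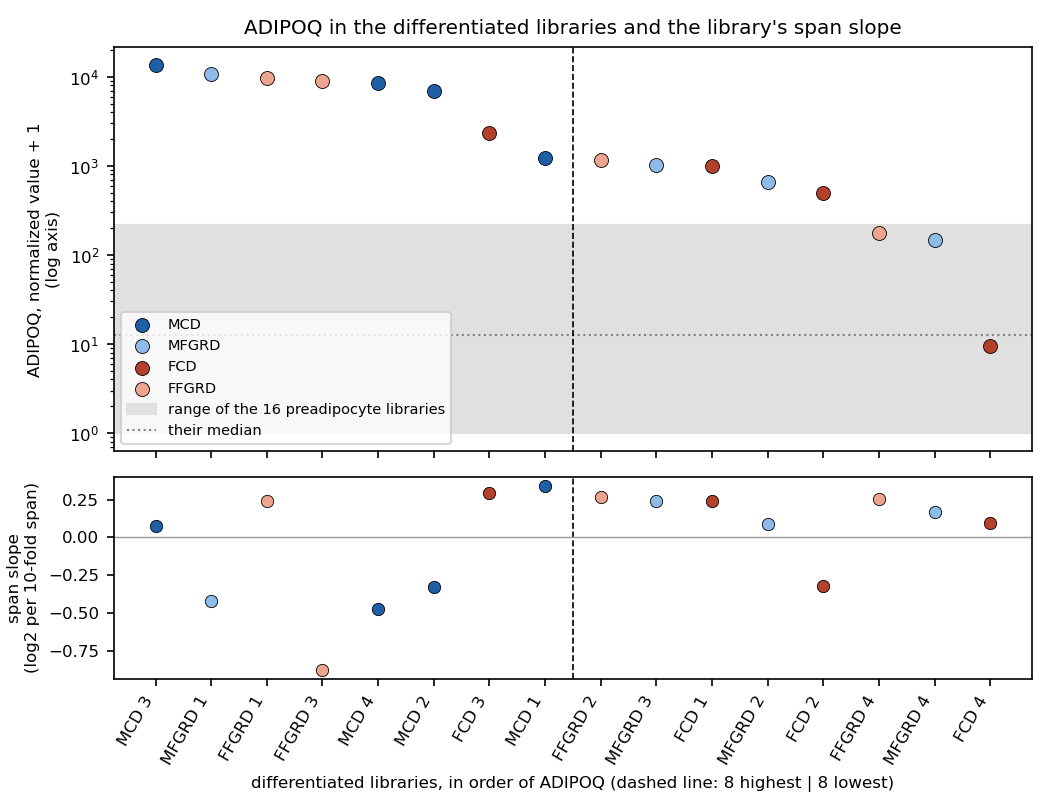
ADIPOQ in the 16 differentiated libraries in rank order (upper panel, normalized value + 1, log axis) and the span slope of each library (lower panel, log2 per 10-fold of genomic span). Points are libraries coloured by group, the grey band is the range of the 16 preadipocyte libraries, and the dashed line separates the 8 highest from the 8 lowest, whose neighbours at the line are 1233 and 1160.

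Sequencing depth was roughly 7.79 to 16.7 M reads (M for mega) in the high set and 9.91 to 18.6 M reads in the low set, estimated from the value that 1 read takes in each library. The share of mitochondrial transcripts had a median of 3.48% in the high set and 2.27% in the low set. Libraries also differed in how their values depended on the length of the gene in the genome. This span slope, the change in log2 value per 10-fold of genomic span relative to the mean library, ran from -0.88 to 0.34 in the high set and from -0.32 to 0.27 in the low set. It lay under -0.3 in 4 libraries of the high set, 1 of the low set and 4 preadipocyte libraries. The 3 differentiated libraries with the lowest slope, MCD replicate 4, MFGRD replicate 1 and FFGRD replicate 3, all fell in the high set. Over the 16 libraries Spearman's rho of ADIPOQ was -0.31 with the span slope, -0.39 with depth and 0.31 with the mitochondrial share. Each difference below was recomputed without these 3 libraries, and the part of the slope in the results was not tested otherwise than by that and by a fit with the slope as a covariate.

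The cultures were checked against 7 adipocyte markers. FABP4, PLIN1, LIPE and CEBPA lay above every preadipocyte library in 8 of 8 high libraries and in 7 of 8 low libraries. PPARG did so in 6 high and 0 low libraries, LPL in 6 and 4, and CIDEC in 7 and 0. The exception in the low set was in each of the first 4 cases FCD replicate 4, where FABP4 (215), PLIN1 (19.0), LIPE (8.46), CEBPA (25.6), PPARG (72.0) and LPL (65.0) all lay within the preadipocyte range. By these markers the library labelled FCD replicate 4 did not exceed the highest preadipocyte library, whereas the other 7 low libraries did for FABP4, PLIN1, LIPE and CEBPA. Its FABP4 was nevertheless well above the preadipocyte median. The preadipocyte libraries were not uniform, since ADIPOQ was 121 in FFGR replicate 2 and 216 in FFGR replicate 3, against at most 23.2 in the rest. The part of these libraries in the upper ends of the preadipocyte ranges was not tested.

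Across the genome the 2 sets differed by a median of -0.02 on the log2(value + 1) scale. Among 11455 genes that reached 10 units in at least 8 of the 16 libraries, 535 (4.67%) were over 1 log2 unit higher in the high set, 761 (6.64%) were over 1 lower, and 6812 (59.5%) were within 0.5. Of the genes beyond 1, 41.3% were on the higher side. This split turned with these 3 libraries of low span slope. Without them 318 genes were higher and 170 lower by over 1 (65.2% higher), and with the slope as a covariate the counts were 376 and 189 (66.5% higher). Centring values within the 4 groups first gave 271 and 146 (65.0% higher), leaving out FFGRD replicate 3 alone gave 426 and 359 (54.3% higher), and taking transcripts singly gave 819 and 2240 (26.8% higher). The values of 18 genes in the high set all lay above all values of the low set (0.157% of genes), and those of 2 genes all lay below (0.0175%). Since the ranking used these same libraries, nothing is read from these shares.

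The label comparison of differentiated with undifferentiated libraries supplied the test. In limma, 1510 of 12181 genes (12.4%) rose and 1797 (14.8%) fell with differentiation, at an adjusted p below 0.05 and a fold change above 1.5. For 56 genes (0.46%) all 16 differentiated libraries lay above all 16 preadipocyte libraries, and for 83 (0.681%) all lay below. Of the 1500 genes that rose and were also measured in both sets, 248 (16.5%) were over 1 higher in the high set, 860 (57.3%) were within 0.5 and 45 were over 1 lower. The share over 1 higher was 3.07% of 618 genes that rose by up to 1 log2 unit, 15.1% of 551 between 1 and 2, 31.7% of 167 between 2 and 3, 55.9% of 118 between 3 and 5, and 58.7% of 46 above 5. Of those 46, 8 lay within 0.5 between the sets. Among 119 genes with a change of 1 to 2 in either direction that were not called, 21 (17.6%) were over 1 higher. More of them, 36, were over 1 lower (median -0.73). Of genes that fell, 38 of 171 between 2 and 3 and 29 of 76 between 3 and 5 were over 1 lower. Both quantities come from the same 16 differentiated libraries, so nothing is read from their order.

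**Figure D2:**
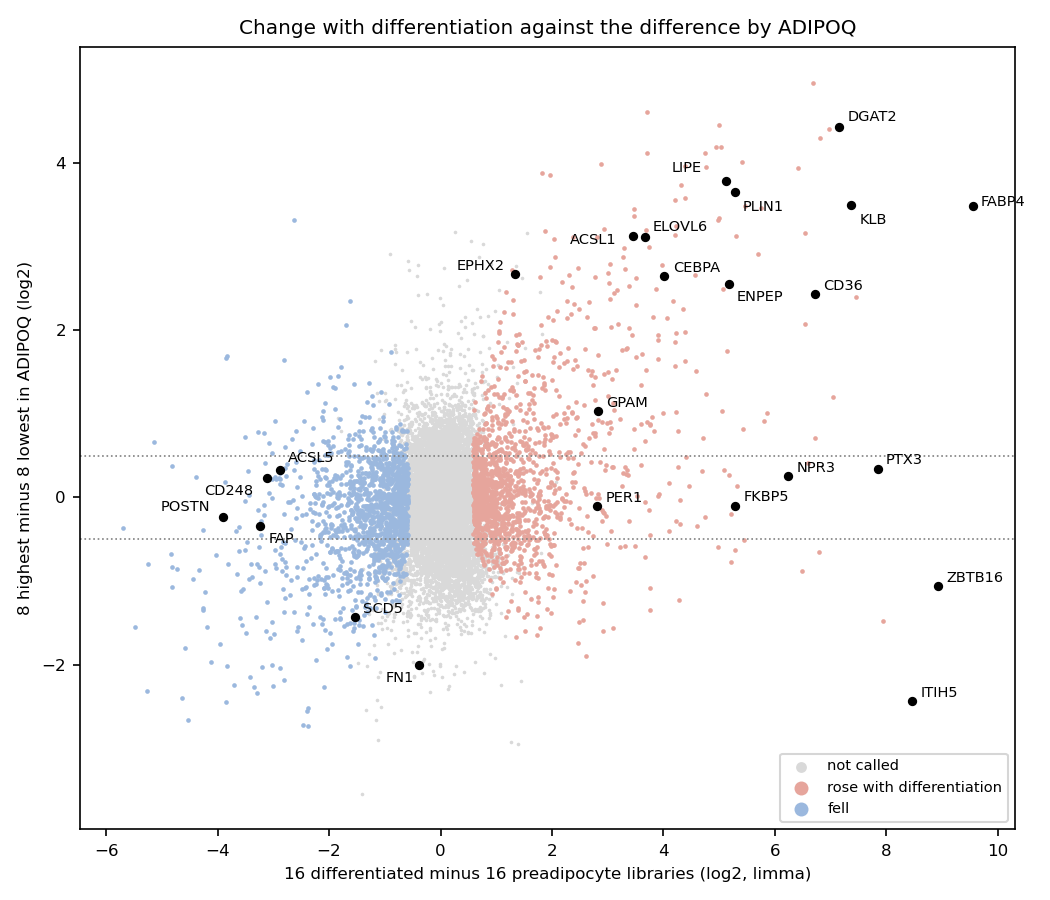
Each point is a gene measured in both comparisons. The x axis is the log2 change from preadipocyte to differentiated libraries in limma, the y axis the difference between the 8 libraries highest and the 8 lowest in ADIPOQ (log2), red and blue are genes that rose or fell with differentiation, and the dotted lines stand at 0.5 and -0.5. PLIN1, LIPE and DGAT2 lie high on both axes, whereas FKBP5, PTX3 and NPR3 lie far to the right between the dotted lines.

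The coat of the lipid droplet and the lipases that empty it showed the largest list median between the sets. Of the 19 genes listed, 17 were in the table and 12 reached the filter. Of those 12, 9 were over 1 higher in the high set and 0 were over 1 lower, with a median of 2.50 against -0.02 over all genes. With differentiation 8 of 14 tested members rose and 1 fell, against 12.4% and 14.8% of all genes. Between the sets 4.67% of all genes were over 1 higher, 6.64% over 1 lower and 59.5% within 0.5. These shares are the background for each list below. A member could pass the filter through the high libraries alone, so these counts describe the list and do not support it. Perilipin 1 (PLIN1, Oar_rambouillet_v1.0 chromosome 18, 18508861 to 18520637), which guards the droplet until adrenergic stimulation, measured 747, 4284 and 5936 (lowest, median, highest) in the high set, 19.0, 341 and 795 in the low set, and 9.62, 23.7 and 35.7 in preadipocytes. The sets overlapped only at the boundary, where 2 low libraries, FCD replicate 1 (795) and FFGRD replicate 2 (777), exceeded MCD replicate 1 (747). The mean difference was 3.65 (12.6-fold), Spearman's rho with ADIPOQ was 0.97, and the rise with differentiation was 5.28 ± 0.57 (SE, adjusted p = 1.6e-08, limma).

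Hormone-sensitive lipase (LIPE) measured 169, 1508 and 2207 in the high set, 8.46, 106 and 271 in the low set, and at most 28.9 in preadipocytes. The high set lay above every preadipocyte library, and the difference between the sets was 3.79. PLIN4 (difference 2.91), CIDEC, the protein that fuses droplets into larger ones (3.45), adipose triglyceride lipase PNPLA2 (2.25), its activator ABHD5 (1.80) and FITM2, which helps droplets bud from the endoplasmic reticulum (1.20), followed the same order, and all of these rose with differentiation. CIDEC belonged to the genes with no overlap, at 18.8 to 409 in the high set against 0.709 to 17.2 in the low set.

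Other members departed from this pattern. PLIN2, the perilipin found on droplets of most cell types, rose by 2.26 ± 0.32 with differentiation (adjusted p = 2.0e-06, limma) but differed by only 0.52 between the sets, at 3973, 9140 and 20768 against 3199, 6561 and 9590. The ranges of the 2 sets overlapped for PLIN2 in most libraries, unlike those of PLIN1. CIDEA and monoacylglycerol lipase (MGLL) did not pass the differentiation test (0.07 ± 0.49, adjusted p = 0.94, and 0.90 ± 0.56, adjusted p = 0.23, limma), yet were 2.75 and 2.79 higher in the high set. For both, the low set had medians under the preadipocyte medians, 21.3 against 53.8 for CIDEA and 16.2 against 23.0 for MGLL, so the 16 differentiated libraries lay on both sides of the starting level.

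**Figure D3:**
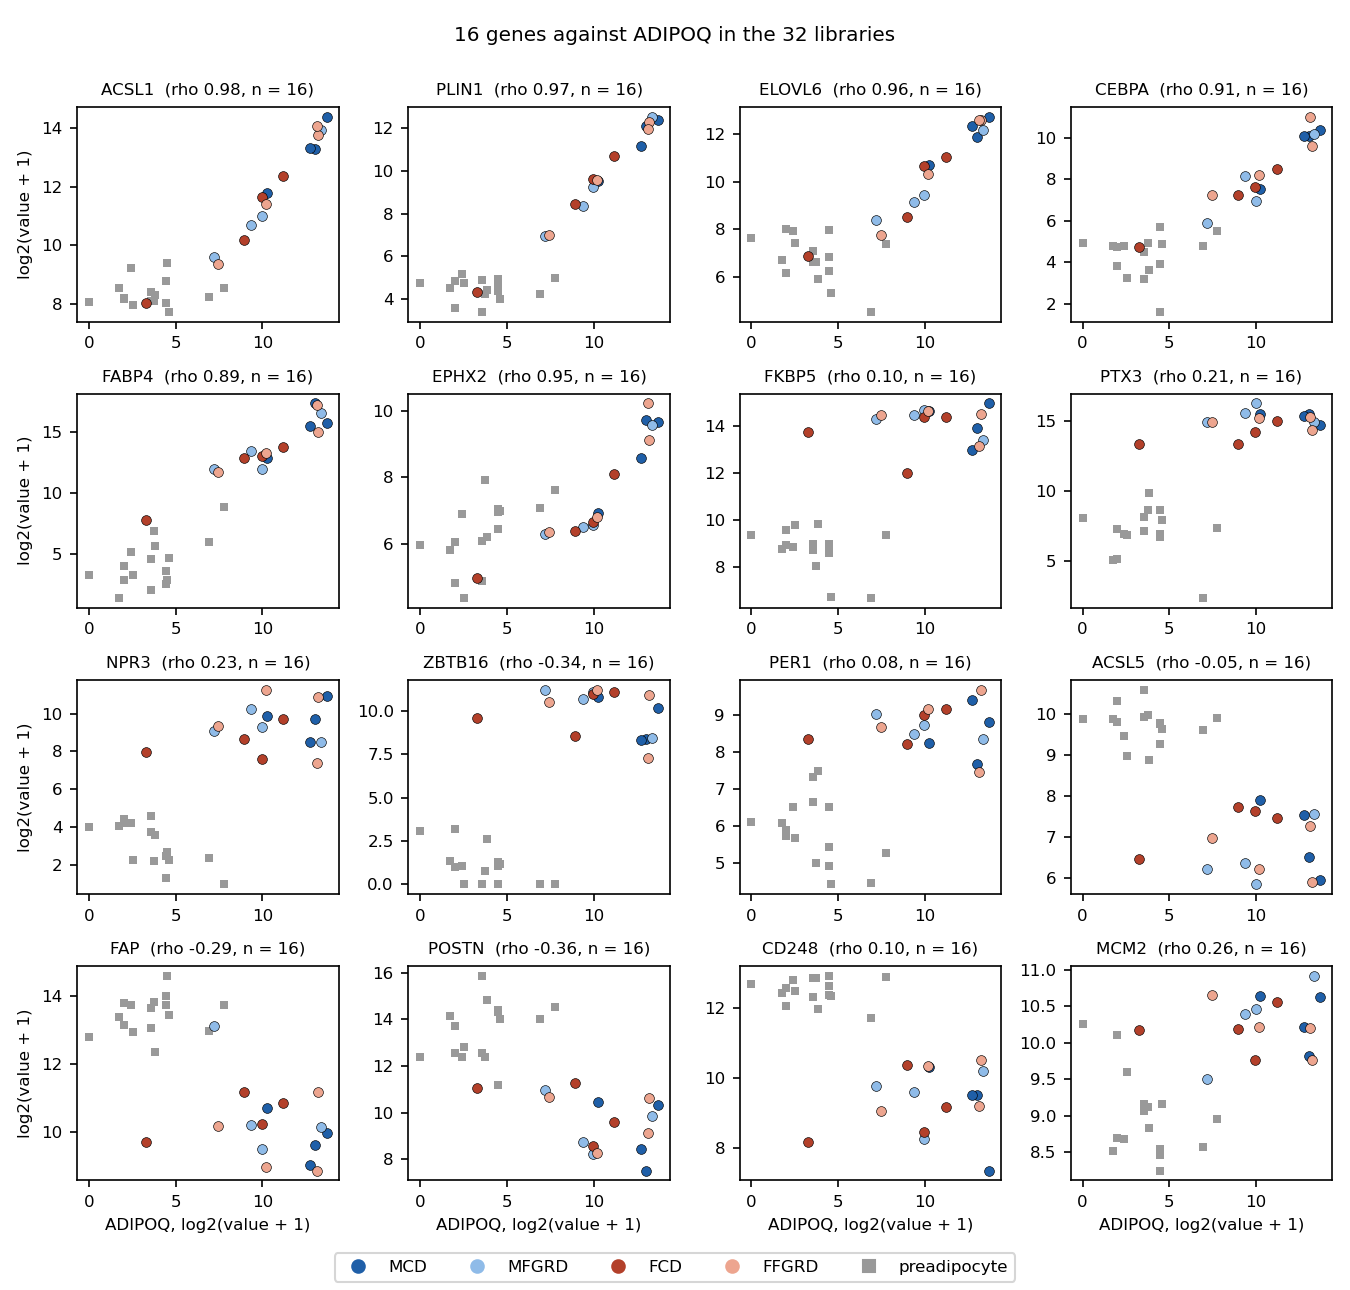
16 genes plotted against ADIPOQ, both as log2(value + 1), in 16 differentiated libraries (circles, coloured by group) and 16 preadipocyte libraries (grey squares). The first 6 panels follow ADIPOQ (rho 0.89 to 0.98 over the 16 differentiated libraries), while FKBP5, PTX3, NPR3 and ZBTB16 lie above and ACSL5 and CD248 below all preadipocyte libraries at every ADIPOQ value. PER1, FAP and POSTN do so but for 1 library each.

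Triglyceride synthesis split between enzymes that followed ADIPOQ and enzymes that did not. Of 12 genes over the filter, 6 were over 1 higher in the high set and 5 lay within 0.5 (median 0.88). In the differentiation test 6 of 12 rose and 0 fell, against 12.4% and 14.8% of all genes. Diacylglycerol acyltransferase 2 (DGAT2), which makes the final bond of triglyceride, measured 216, 1511 and 4554 in the high set, 3.54, 99.7 and 235 in the low set, and 0, 0.931 and 7.53 in preadipocytes. The sets overlapped only where FFGRD replicate 2 (235) exceeded MCD replicate 1 (216), and the difference was 4.43. MOGAT1, which acylates monoacylglycerol (3.24), glycerol-3-phosphate dehydrogenase GPD1 (3.00), GPAT3 (1.71), the phosphatidate phosphatase LPIN1 (1.65) and the mitochondrial acyltransferase GPAM (1.04) were the others. GPAM exceeded all preadipocyte libraries in 8 high and 8 low libraries, FCD replicate 4 included (355 against a preadipocyte maximum of 353). AGPAT1 (0.03), AGPAT5 (-0.06), LPIN2 (0.17), LPIN3 (-0.16) and GPAT4 (0.46) differed little between the sets and none of them was called in the differentiation test. PCK1, which supplies glycerol phosphate from pyruvate, did not reach the filter, at 2.93 to 42.2 in the high set and 0 to 7.57 in the low set.

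In fatty acid uptake and activation, 6 of 14 genes were over 1 higher in the high set and 6 lay within 0.5, with a median of 0.54. With differentiation 7 of 14 rose and 3 fell, against 12.4% and 14.8% of all genes. The long-chain acyl-CoA synthetase ACSL1 (chromosome 26, 16058778 to 16132769), which primes fatty acids for esterification, had the closest relation to ADIPOQ of any named gene (rho 0.98, n = 16). It measured 3561, 12158 and 21380 in the high set, 260, 1403 and 3192 in the low set, and 210, 294 and 673 in preadipocytes. The sets did not overlap, and FCD replicate 4 (260) lay at the preadipocyte level. The difference was 3.13 (8.77-fold) and the rise with differentiation was 3.45 ± 0.46 (adjusted p = 6.5e-07, limma).

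The 3 other measured members of the ACSL family did not share this order. ACSL3 and ACSL4 differed by 0.01 and 0.05 between the sets and were not called with differentiation. ACSL5 fell by 2.88 with differentiation (SE 0.19, adjusted p = 3.6e-12, limma) in high and low libraries alike, at 59.3, 164 and 240 in the high set and 56.5, 84.8 and 212 in the low set against 473, 887 and 1554 in preadipocytes. All 16 differentiated libraries lay below all 16 preadipocyte libraries.

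The fatty acid carrier FABP4 measured 7654, 49070 and 167630 in the high set, 215, 5806 and 10983 in the low set, and 1.56, 13.1 and 445 in preadipocytes. It differed by 3.49 between the sets and rose by 9.55 ± 0.70 with differentiation (adjusted p = 2.2e-11, limma). Its low libraries still averaged 7.81 log2 units above preadipocytes, so a rise was present at low ADIPOQ and was larger at high ADIPOQ. The fatty acid translocase CD36 behaved likewise (2.43 between the sets, 5.50 from preadipocytes to the low set). Lipoprotein lipase (LPL, 1.47), caveolin 1 (CAV1, 1.85) and CAV2 were higher in the high set with overlap, and CAV2 was not called with differentiation. The transporters SLC27A3 (-0.01) and SLC27A4 (0.20) rose by 2.79 and 1.14 with no such difference between the sets. FABP3 (0.41) and VLDLR (0.68) fell by 3.15 and fell by 2.10 with differentiation.

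Enzymes of fatty acid synthesis also divided. Of 16 genes, 7 were over 1 higher in the high set and 2 over 1 lower (median 0.63). In limma 7 of 16 rose and 3 fell with differentiation, against 12.4% and 14.8% of all genes. The elongase ELOVL6 (chromosome 6, 18329750 to 18464982), which makes C18 from shorter saturated acids, measured 1663, 4868 and 6733 in the high set, 116, 469 and 1611 in the low set, and 22.4, 110 and 261 in preadipocytes, with no overlap between the sets (difference 3.11, rho 0.96). THRSP, a regulator of lipogenesis (4.41), the acetyl-CoA synthetase ACSS2 (3.11), the glucose-responsive factor MLXIPL (2.56), stearoyl-CoA desaturase SCD (2.03), fatty acid synthase FASN (1.31) and the citrate carrier SLC25A1 (1.04) were the others over 1. SLC25A1 was not called with differentiation, and its difference was 0.40 without the 3 libraries of low span slope.

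The paralogue SCD5 ran opposite to SCD. SCD5 measured at most 127 (median 36.5) in the high set, 60.9, 132 and 265 in the low set, and 46.6, 241 and 316 in preadipocytes. It fell by 1.53 with differentiation (SE 0.32, adjusted p = 0.00033, limma) and was lower in the high set by 1.43, or 1.01 without the 3 libraries. Acetyl-CoA carboxylase 2 (ACACB), the form tied to mitochondrial fatty acid oxidation, had a difference of -2.14, at 45.5, 214 and 2413 in the high set against 168, 1486 and 4907 in the low set, which became -1.08 without the 3 libraries. Acetyl-CoA carboxylase 1 (ACACA) differed by 0.31, or 0.75 without the 3 libraries, ATP citrate lyase (ACLY) by -0.25 and malic enzyme (ME1) by 0.30.

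**Figure D4:**
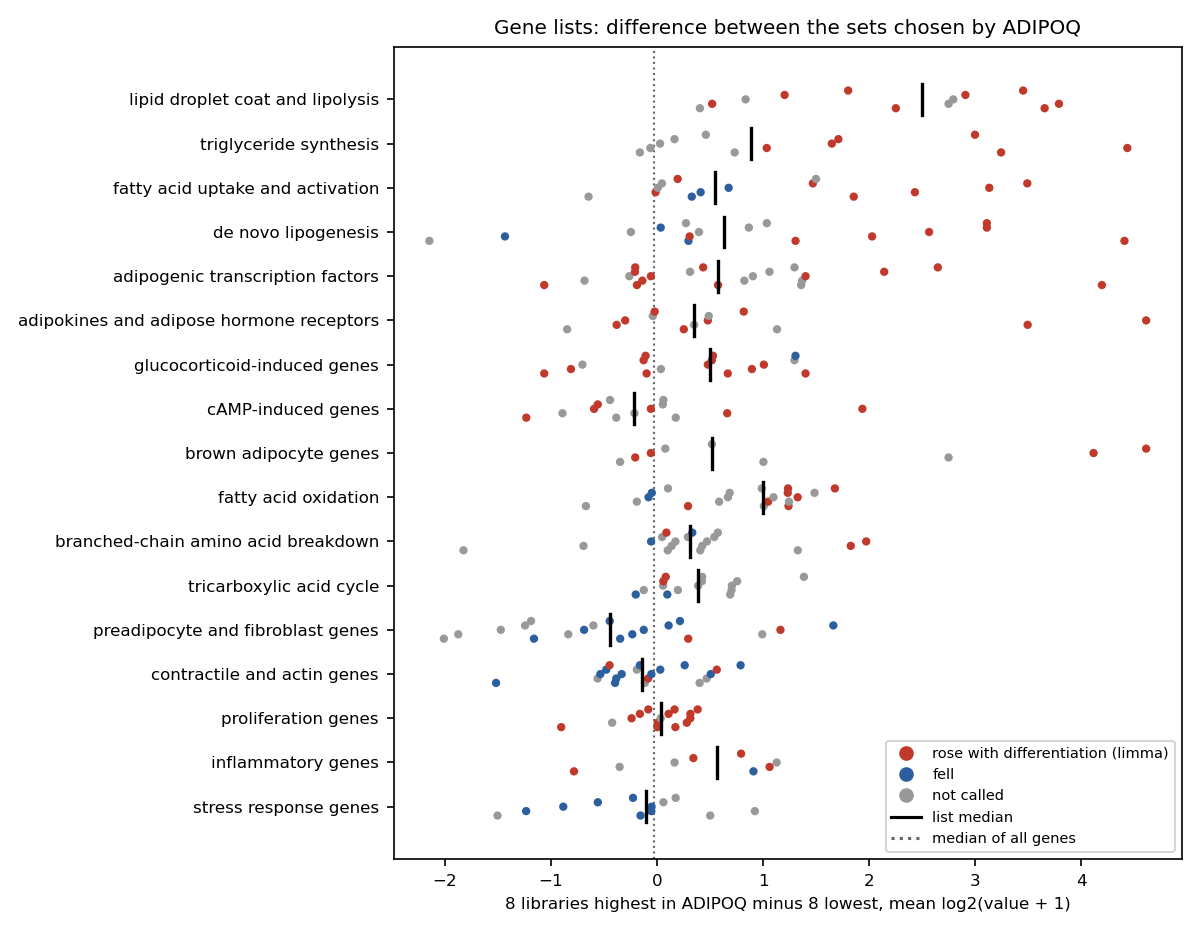
Difference between the 8 libraries highest and the 8 lowest in ADIPOQ (x axis, mean log2(value + 1)) for each measured gene of 17 lists (rows). Red genes rose and blue genes fell with differentiation in limma, the bar is the list median and the dotted line the median of all genes. The bar stands at 2.50 for droplet and lipolysis genes and at 0.04 for proliferation genes, which are nearly all red.

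Transcription factors of adipogenesis showed both behaviours side by side. Of 21 genes, 8 were over 1 higher in the high set, 1 over 1 lower and 8 within 0.5 (median 0.58). With differentiation 12 of 21 rose and 0 fell, against 12.4% and 14.8% of all genes. CEBPA measured 184, 1063 and 2024 in the high set, 25.6, 151 and 296 in the low set, and 2.08, 25.8 and 51.5 in preadipocytes (difference 2.65, rho 0.91). PPARG measured 274, 1196 and 2012 in the high set, 72.0, 246 and 424 in the low set, and up to 610 (median 120) in preadipocytes (difference 2.14, rho 0.86). PPARG rose by 2.26 ± 0.48 with differentiation (adjusted p = 0.00039, limma), yet 0 of 8 low libraries exceeded the highest preadipocyte library. RXRG, a partner of PPARG, lay at or under 3 reads in all preadipocyte libraries. It reached 24.4 to 882 in the high set and 0.706 to 35.6 in the low set, a difference of 4.19 and a rise of at least 8.57-fold over the level of 3 reads.

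KLF15 (1.40), a glucocorticoid-responsive activator of PPARG, and RXRA (0.58) rose with differentiation and leaned to the high set. CEBPB (1.37), CEBPD (1.30), ZNF423 (1.36) and the liver X receptor NR1H3 (1.06) were also over 1 higher in the high set but were not called with differentiation. Without the 3 libraries the difference was 0.64 for CEBPD and 0.34 for NR1H3. CEBPB measured 1200, 2264 and 3285 in the high set and 394, 769 and 1541 in the low set, on either side of 888, 1218 and 1819 in preadipocytes. EBF1 (-0.21), EBF2 (-0.20), EBF3 (-0.19), PPARGC1A (-0.06) and STAT5B (-0.14) rose with differentiation and did not separate the sets. STAT5A (0.44) rose by 1.30 ± 0.15 (adjusted p = 1.0e-07, limma) and exceeded all preadipocyte libraries in 8 high and 7 low libraries.

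Among secreted factors and receptors, 3 of 13 genes were over 1 higher in the high set (median 0.35). The 8 within 0.5 are near the 59.5% of all genes. A rise with differentiation was called in 8 of 13, against 12.4% of all genes. KLB, the co-receptor through which FGF21 acts on fat, was at 209, 691 and 1532 in the high set, 0, 106 and 231 in the low set, and at or under 3 reads in all preadipocyte libraries. The difference was 3.49 and the rise at least 47.1-fold over 3 reads. The adrenergic receptor ADRB3 measured 8.94, 102 and 411 against 0, 3.93 and 20.4, a difference of 4.61. The insulin-responsive glucose transporter SLC2A4 did not reach the filter, at 2.23, 39.9 and 85.8 in the high set and 0, 2.39 and 6.07 in the low set. The insulin receptor INSR (-0.38) and IRS2 (-0.30) rose by 1.36 and 1.42 with differentiation without following ADIPOQ. The natriuretic peptide receptor NPR1 (-0.02) did the same, rising by 2.18. The chemokine-like adipokine RARRES2 (1.13) was not called with differentiation and fell to a difference of 0.27 without the 3 libraries.

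Some brown fat genes had their larger values in the high set. UCP1, the uncoupling protein of brown adipocytes, measured 0, 85.6 and 680 in the high set and 0, 0.849 and 31.9 in the low set, with all preadipocyte libraries at or under 3 reads, and rose at least 3.71-fold over that level. The elongase ELOVL3 (5.53 to 374 against 0 to 13.4) and the potassium channel KCNK3 (2.31, 27.1 and 68.2 against 0, 0.430 and 7.59) did not reach the filter. PANK1 (-0.35), LHX8 (0.08), EBF2 and PPARGC1A did not follow this order, and ZIC1 was at 0 in all 32 libraries. Over the list 4 of 9 genes were over 1 higher (median 0.52). In limma 4 of 10 rose with differentiation and 1 fell, against 12.4% and 14.8% of all genes.

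Fatty acid oxidation genes had a median difference of 1.00 over 20 genes, 10 of them over 1 higher in the high set and 0 over 1 lower. A rise with differentiation was called in 7 of 21 and a fall in 3, against 12.4% and 14.8% of all genes. The list median was 0.08 between low libraries and preadipocytes and 0.92 between high libraries and preadipocytes. The peroxisomal enzyme EHHADH measured 515, 1050 and 3414 in the high set against 194, 407 and 508 in the low set, with no overlap (1.68), and rose by 2.04 ± 0.29 (adjusted p = 1.5e-06, limma). The electron-transfer dehydrogenase ETFDH (1.24), the trifunctional subunits HADHA (1.10) and HADHB (1.23), ACADVL (1.05), ACADS (1.49), ACAA2 (1.33) and the carnitine carrier SLC25A20 (1.24) had the same sign. The median became 0.58 without the 3 libraries and 0.70 with the slope as a covariate. CPT1A, the entry step, rose by 1.43 with a difference of only 0.29. The median was 0.31 over 18 genes of branched-chain amino acid breakdown and 0.39 over 15 genes of the tricarboxylic acid cycle, where 3 and 1 genes were over 1 higher. Without the 3 libraries these medians were 0.17 and 0.13, and with the slope as a covariate 0.25 and 0.10. The genes over 1 were ACAT1 (1.83), HSD17B10 (1.97), BCKDHB (1.33) and, of the cycle list, pyruvate carboxylase (PC, 1.39). BCAT1 had a difference of -1.82, or -0.86 without the 3 libraries.

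Genes known to answer glucocorticoids rose in most cases, and 3 of 16 lay above all preadipocyte libraries in all 16 differentiated libraries. Of 16 genes over the filter 12 rose and 1 fell with differentiation, 4 were over 1 higher in the high set, 1 over 1 lower and 5 within 0.5 (median 0.50). Over all genes 12.4% rose, 4.67% were over 1 higher in the high set and 59.5% were within 0.5 (median -0.02). By these counts the list as a whole leaned to the high set more than all genes did. FKBP5 (chromosome 20, 11254529 to 11324058), a co-chaperone of the glucocorticoid receptor and one of its most direct targets, measured 8023, 18388 and 31697 in the high set, 4118, 21875 and 25935 in the low set, and 101, 472 and 906 in preadipocytes. All 16 differentiated libraries lay above all preadipocyte libraries, and the sets overlapped throughout. The difference was -0.10 and the rise with differentiation 5.29 ± 0.30 (39.1-fold, adjusted p = 7.9e-14, limma).

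PER1 (-0.11), KLF9 (-0.13), DUSP1 (0.53) and monoamine oxidase A (MAOA, 0.52) rose by 2.81, 2.48, 0.64 and 1.96. Glutamine synthetase (GLUL) rose by 2.26 ± 0.25 (adjusted p = 2.3e-08, limma), exceeded every preadipocyte library in 8 high and 8 low libraries, and was 0.90 higher in the high set. ZBTB16 (chromosome 15, 27130991 to 27329387), a zinc finger repressor induced by glucocorticoids, rose by 8.93 ± 0.43 (adjusted p = 2.5e-15, limma) and had its larger values in the low set, at 157, 751 and 2164 in the high set, 371, 1840 and 2420 in the low set, and 0, 1.04 and 8.19 in preadipocytes. Its difference of -1.06 became -0.23 without the 3 libraries. PDK4, which shuts pyruvate dehydrogenase, rose by 5.87 ± 0.60 (adjusted p = 5.9e-09, limma) and was 1.01 higher in the high set with wide overlap, at 297 to 2357 against 42.3 to 1775. HSD11B1, which regenerates active glucocorticoid, fell by 1.89 (SE 0.47, adjusted p = 0.0020, limma) but was 1.31 higher in the high set, at 15.6, 40.7 and 117 against 5.66, 15.4 and 40.4.

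Cyclic AMP target genes had a median difference of -0.21 over 13 genes, with 1 over 1 higher and 1 over 1 lower. These 2 counts are near the shares of all genes (4.67% and 6.64%), so nothing is read from them. In limma 6 of 13 rose and 0 fell, against 12.4% and 14.8% of all genes. Phosphodiesterases split by isoform. PDE3B, the insulin-activated enzyme of adipocytes, measured 1227, 2537 and 7991 in the high set, 193, 860 and 1346 in the low set, and 11.1, 99.4 and 321 in preadipocytes (difference 1.94, rho 0.94, rise 3.91 ± 0.40, adjusted p = 8.0e-09, limma). PDE4D rose by 4.29 ± 0.65 (adjusted p = 4.4e-06, limma) and PDE7B by 2.99 ± 0.33 (adjusted p = 2.1e-08, limma), with differences of -1.23 and -0.56 that were -0.45 and -0.39 without the 3 libraries. RGS2, which damps G-protein signals, rose by 2.66 ± 0.23 (adjusted p = 3.8e-10, limma) and was above all preadipocyte libraries in all 16 differentiated libraries, with a difference of -0.59. PDE3A (-0.89), NR4A2 (-0.44) and CREM (0.06) were not called with differentiation.

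The genes in which all 8 high libraries lay above all 8 low libraries, ordered by size, began with TMEM132C, a membrane protein of little-known function, at 64.1, 214 and 705 against 0.703, 7.23 and 58.1 (4.46), with all preadipocyte libraries at or under 3 reads. CIDEC, the protease ADAMTS16 (3.18), ACSL1, ELOVL6, the epoxide hydrolase EPHX2 (2.67), FAM107A (2.62), the cell cycle factor MYBL2 (2.52), the receptor kinase MST1R (2.09) and the monocarboxylate carrier SLC16A7 (1.75) made up the 10 largest. Not all of these rose with differentiation. ADAMTS16 (0.27 ± 0.63, adjusted p = 0.79), FAM107A (1.46 ± 0.60, adjusted p = 0.060) and MST1R (0.57 ± 0.39, adjusted p = 0.29) were not called in limma, and SLC16A7 fell by 0.89 (SE 0.27, adjusted p = 0.011). SLC16A7 measured 206, 411 and 723 in the high set and 286, 400 and 830 in preadipocytes but 81.8, 112 and 191 in the low set, so its low set lay below the preadipocyte range.

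Diacylglycerol kinase alpha (DGKA, -0.67) and the zinc finger gene ZNF317 (-0.59) were the only 2 with all high libraries below all low ones. DGKA measured 116, 202 and 241 against 253, 272 and 564, with preadipocytes at 204, 276 and 483. Neither was called with differentiation (adjusted p = 0.20 and 0.52, limma).

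The 10 named genes with the highest rho were ACSL1, PLIN1, ELOVL6, NETO1, PRKAR2B, EPHX2, PPP2R5A, EHHADH, NECTIN2 and ENPEP, from 0.98 down to 0.95. This is a description over 16 points that share library and depth. EPHX2 (chromosome 2, 40279079 to 40353657), which turns epoxy fatty acids into diols, measured 122, 659 and 1199 in the high set, 30.3, 86.3 and 112 in the low set, and 19.7, 79.6 and 240 in preadipocytes. It rose by 1.34 ± 0.44 (adjusted p = 0.019, limma), while the low set differed by 0.00 from preadipocytes. The protein kinase A subunit PRKAR2B (2.22 between the sets, 0.03 from preadipocytes to the low set) and the phosphatase subunit PPP2R5A (1.45 and 0.02) had the same form. The aminopeptidase ENPEP was different, at 246, 512 and 935 in the high set and 26.7, 81.1 and 262 in the low set against 0, 3.98 and 16.5 in preadipocytes. It exceeded all preadipocyte libraries in every differentiated library, FCD replicate 4 included, and still differed by 2.55 between the sets.

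**Figure D5:**
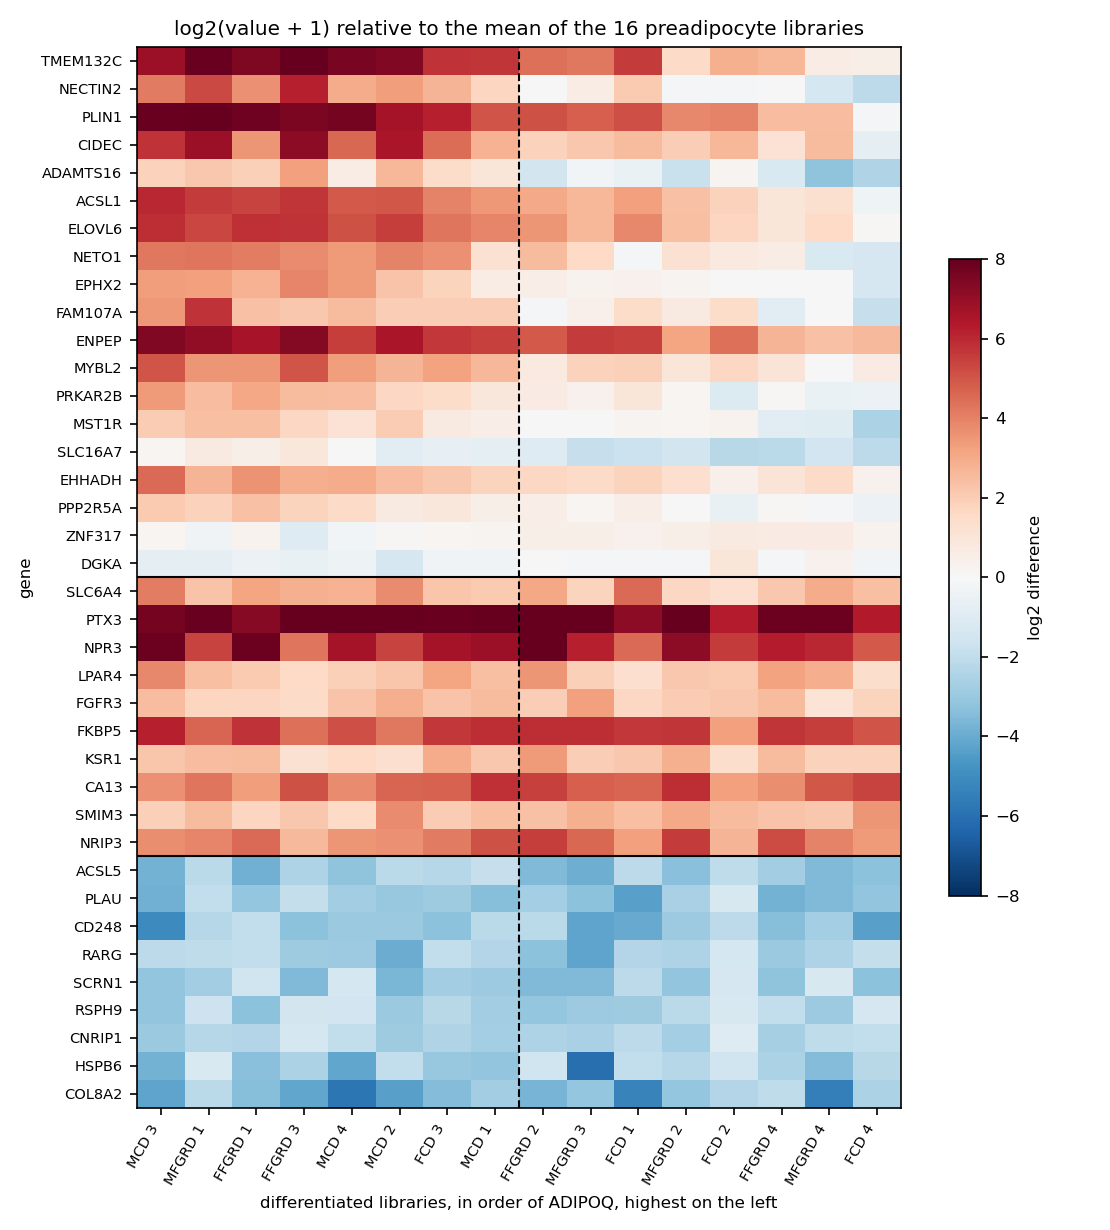
Heat map of log2(value + 1) relative to the mean of the 16 preadipocyte libraries for genes chosen by the naming rule (rows) in the 16 differentiated libraries in order of ADIPOQ (columns), with red for higher and blue for lower values. In most rows of the top block values fall from left to right across the dashed line between the sets, while in DGKA and ZNF317 they rise. The middle block is red and the bottom block is blue in all columns.

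A second rule named genes that moved in every differentiated library whatever its ADIPOQ value. It asked that a gene be called in limma, that all 16 differentiated libraries lie beyond all 16 preadipocyte libraries, and that the sets differ by under 0.5. These conditions were met by 26 named genes that rose and 39 that fell, and closeness between the sets is what chose them. The largest rise was that of pentraxin 3 (PTX3, chromosome 1, 250843217 to 250848677), a secreted pattern-recognition protein of innate immunity, at 21177, 36553 and 47822 in the high set, 10587, 31405 and 79549 in the low set, and 4.21, 150 and 926 in preadipocytes. It rose by 7.85 ± 0.46 (adjusted p = 1.8e-13, limma), with a difference of 0.34 between the sets.

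The natriuretic peptide clearance receptor NPR3 (chromosome 16, 43294179 to 43390138) measured 164, 851 and 1939 in the high set, 194, 580 and 2470 in the low set, and 0.937, 8.16 and 22.9 in preadipocytes, a rise of 6.24 ± 0.41 (adjusted p = 1.9e-12, limma). Its difference of 0.25 became 0.80 without the 3 libraries and had the opposite sign within groups. After FKBP5 came carbonic anhydrase CA13 (4.59), NRIP3 (4.09), the serotonin transporter SLC6A4 (2.70), SMIM3 (2.45), the lysophosphatidic acid receptor LPAR4 (2.38), the scaffold KSR1 (2.16) and the receptor FGFR3 (2.12), each given by its rise.

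The largest falls at any ADIPOQ level included the collagen chain COL8A2, which fell by 3.62, the stromal antigen CD248, which fell by 3.12, urokinase (PLAU), which fell by 2.97, ACSL5, HSPB6, SCRN1, the retinoic acid receptor RARG, RSPH9 and CNRIP1, which fell by 2.28. CD248 (chromosome 21, 46149200 to 46151521) measured 164, 734 and 1466 in the high set, 287, 653 and 1316 in the low set, and 3330, 5895 and 7700 in preadipocytes. The highest differentiated library was thus below the lowest preadipocyte library.

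FCD replicate 4, whose adipocyte markers did not exceed the preadipocyte range, was examined on its own. In it 862 of 12181 genes (7.08%) lay above all 16 preadipocyte libraries, and 447 of these had been called as rising. FKBP5 measured 13800 there, PTX3 10853, NPR3 252, ZBTB16 779, PER1 321, KLF9 387, CRISPLD2 7998, PDE4D 1954 and RGS2 1032, each above every preadipocyte library. GLUL (1493) and MAOA (889) were above as well, and so was STAT5A. Among tested list members, 7 of 16 glucocorticoid-induced genes and 3 of 13 cyclic AMP genes lay above all preadipocyte libraries in this library. So did 4 of 21 transcription factors, 4 of 19 preadipocyte and fibroblast genes and 3 of 13 adipokine and receptor genes. The count was 2 of 14 for fatty acid uptake, 2 of 15 for the tricarboxylic acid cycle and 2 of 12 for stress. It was 1 of 12 for triglyceride synthesis, 1 of 16 for fatty acid synthesis and 1 of 12 for inflammation. It was 0 of 14 for the droplet list, 0 of 21 for fatty acid oxidation and 0 of 18 for the branched-chain list. It was also 0 of 10 for brown adipocyte, 0 of 20 for contractile and 0 of 15 for proliferation genes. In lists this short a count of 0 is near the 7.08% of all genes, so nothing is read from it. The lists share members, ZBTB16 among them. PLIN2 stood at 4833, within the preadipocyte range of 562 to 10162 but above its median of 1213. A single library has no replicate, so these are values of that library.

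Genes of preadipocytes, fibroblasts and matrix formed 2 kinds. Of 19 genes, 2 rose and 9 fell with differentiation, against 12.4% and 14.8% of all genes. Between the sets 6 were over 1 lower and 2 over 1 higher (median -0.44), against 6.64% and 4.67% of all genes. Periostin (POSTN) fell by 3.90 (SE 0.38, adjusted p = 2.8e-09, limma) and fibroblast activation protein (FAP) fell by 3.24 (SE 0.28, adjusted p = 4.2e-10), with differences of -0.23 and -0.35 between the sets. POSTN measured 183, 854 and 1582 in the high set and 297, 1023 and 2491 in the low set against 2334, 14958 and 59454 in preadipocytes, and only FCD replicate 2 (2491) reached the preadipocyte range. FAP had 1 exception, MFGRD replicate 4, whose 8840 lay within the preadipocyte range of 5209 to 24550.

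A different group was not called with differentiation but had lower means in the high set. Fibronectin (FN1) measured 5603, 25698 and 119991 in the high set and 15122, 142401 and 214595 in the low set (-2.01), against 12695, 88786 and 517268 in preadipocytes. COL5A1 (-1.87), PDGFRA (-1.47), COL1A1 (-1.24) and COL1A2 (-1.19) had the same sign. Without the 3 libraries of low span slope the differences were -1.07 for FN1, -0.65 for COL5A1, -0.50 for PDGFRA, -0.42 for COL1A1 and -0.57 for COL1A2. THY1 (1.16) rose with differentiation and was higher in the high set.

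Contractile and actin genes fell with differentiation in 12 of 20 cases and rose in 3, against 14.8% and 12.4% of all genes. Their median between the sets was -0.14. The count within 0.5 was 14 of 20, near the 59.5% of all genes, so nothing is read from it. PLS3, which bundles actin, measured 1083, 1465 and 2024 in the high set, 1357, 1558 and 4372 in the low set, and 4024, 7318 and 10242 in preadipocytes, and fell by 2.07 (SE 0.17, adjusted p = 1.4e-10, limma). Calponin CNN1 (-0.05), ACTA2 (0.03), TPM1 (-0.16) and CCN2 (-0.39) fell by 2.73, 1.81, 1.42 and 2.31 respectively. LMO7 was the member with the largest difference (-1.52, and -0.74 without the 3 libraries).

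Proliferation genes rose with differentiation in 13 of 15 cases, against 12.4% of all genes. Between the sets 14 of 15 were within 0.5, against 59.5% of all genes, and 0 of 15 were beyond 1 (median 0.04). MCM2, a subunit of the replicative helicase, measured 866, 1354 and 1935 in the high set, 724, 1178 and 1610 in the low set, and 303, 475 and 1226 in preadipocytes. It rose by 1.26 ± 0.17 (adjusted p = 1.2e-06, limma). TOP2A rose by 1.72 with a difference of -0.90, which was -0.14 without the 3 libraries. MYBL2, a cell cycle factor outside this list, was therefore unlike these genes in following ADIPOQ (265 to 994 in the low set, 1639 to 8469 in the high set).

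Stress response genes fell with differentiation in 7 of 12 cases and rose in 0, against 14.8% and 12.4% of all genes. In the high set 2 of 12 were over 1 lower (median -0.10), against 6.64% of all genes. The amino acid response genes SESN2 (-1.23), CHAC1 (-1.50) and ASNS (-0.88) had lower means in the high set, whereas DDIT3 (-0.15), ATF4 (-0.05) and XBP1 (-0.05) fell with differentiation and differed little between the sets. CHAC1 was not called with differentiation. Of inflammatory genes, CCL2 fell by 2.97 (SE 0.43, adjusted p = 2.2e-06, limma) with a difference of 0.91, and NFKBIA and NFKBIZ rose by 1.52 and 1.32 with differences of 0.79 and -0.78. Of 8 measured members 2, CXCL12 (1.06) and VCAM1 (1.13), were over 1 higher in the high set (list median 0.57). In the differentiation test 4 of 12 inflammatory genes rose and 3 fell, against 12.4% and 14.8% of all genes.

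Markers of other cell types were summed in each library. The 8 endothelial markers summed to 9.33 to 82.6 in the high set, 16.2 to 296 in the low set and 28.1 to 201 in preadipocytes, with CDH5 and CLDN5 at or under 3 reads throughout. The low maximum was PECAM1 at 272 in FCD replicate 2. The 11 measured immune markers summed to 203 to 597, 123 to 957 and 90.4 to 1280. Of these, 4 reached 10 in the high set, 3 in the low set and 11 in preadipocytes. CD14 and CD163 rose by 1.86 and 2.85 with differentiation, while CD68 had a change of -0.81 and was not called (adjusted p = 0.053, limma). PTPRC did not exceed 4.45 in any differentiated library. The 6 mesothelial markers reached at most 130 and 112 in the 2 sets and 2279 (median 35.4) in preadipocytes. The 8 muscle markers reached at most 104 and 335 (medians 45.7 and 49.5), against a median of 462 in preadipocytes, and the 6 kidney epithelium markers at most 66.2 and 5.84, against 2.89. Of the 6 Schwann cell markers only S100B reached the filter (473 to 3197 in the high set, 323 to 573 in the low set, difference 1.56), with SOX10 at most 1.47. The 5 measured adrenal cortex markers summed to at most 573 (median 96.2) in the high set and 19.8 to 2052 (median 65.4) in the low set, against at most 89.8 (median 9.66) in preadipocytes. The summed ranges of the 2 sets overlapped for each list. Of the muscle markers MYOD1, MYOG and CKM were at 0 in all low libraries and none in all high libraries, and 4 of 8 reached 10 in each set. Of the kidney markers UMOD and AQP2 were at 0 in both sets. Muscle sums were lower and adrenal sums higher in the differentiated sets than in preadipocytes by their medians. The part of S100B and the other markers in the results was not tested.

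Growth restriction and sex gave no calls among the 16 differentiated libraries. Of 11455 genes, 0 (0.0%) were called for growth restriction and 0 (0.0%) for sex in limma, with 85 and 79 genes at an unadjusted p below 0.05. Both counts lay under the share of 0.05 that evenly spread p-values would give. They depended on a few libraries. For sex the count was 651 without FFGRD replicate 3, and for growth restriction 509 without the 3 libraries of low span slope, again with 0 calls. For the genes that followed ADIPOQ the growth-restricted minus control differences were small beside the spread, at -0.05 for PLIN1, -0.14 for ACSL1, -0.28 for ELOVL6, 0.13 for CEBPA, 0.14 for PPARG and 0.30 for FABP4 (adjusted p = 1.0 for each, limma). The same held for FKBP5 (0.32), PTX3 (0.56) and NPR3 (0.37). A p that misses the threshold does not show that the groups are alike. Sex entered this fit as an additive term only, so differences of opposite sign in males and females would cancel in it. The high set held 4 MCD and 1 MFGRD libraries, but 1 FCD and 2 FFGRD libraries. A separate fit within each sex was not made.

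The unequal make-up of the sets was examined inside groups. In FCD, MFGRD and FFGRD, the groups with libraries of both sets, the mean of the within-group differences was 3.82 for PLIN1, 3.16 for ACSL1, 3.03 for ELOVL6, 2.57 for CEBPA, 3.42 for FABP4 and 2.77 for EPHX2, positive in 3 of 3 groups for each. It was -0.27 for FKBP5, 0.14 for PTX3 and -0.19 for NPR3. ACSL1, ELOVL6 and EPHX2 had no overlap between the sets, so their sign in each group was fixed in advance. PLIN1 overlapped only at MCD replicate 1, outside these groups, so the same holds for it. FKBP5, PTX3 and NPR3 were chosen by closeness between the sets. FCD and MFGRD each set 1 high library beside 3 low ones, so nothing is read from these signs. The study's own list of differentiation genes, of which 19 reached the filter without the sorting gene, is not independent. It was chosen in part on these samples, as genes altered in the control groups and also in 3 outside data sets of human and mouse cells. Of 19 members 11 were over 1 higher in the high set, 2 over 1 lower (ZBTB16 and LMO7) and 5 within 0.5.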

How the data were processed

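RNA from preadipocytes and differentiated cells was sequenced in 32 libraries. Reads were quantified by the authors with Salmon on the Ensembl annotation of Oar_rambouillet_v1.0 after a quality check (FastQC 0.11.9 per the labels), and the deposited table holds the signal per transcript normalized by the authors with DESeq2. The values were not whole numbers, so a limma fit was used in place of a count test. Fold-change score columns and p-value columns deposited by the authors hold their own comparisons and were not used, nor were the group means. Depth is known only approximately.

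Transcripts (35219) were summed to 21271 genes and transformed as log2(value + 1). Folds on that scale understate changes of low genes. Genes needed 10 units in at least 8 libraries of a comparison. Genes were tested with limma 3.58.1 (R 4.3.3, empirical Bayes trend, Benjamini-Hochberg adjustment over all genes, adjusted p below 0.05 and fold above 1.5), with the combinations of sex and growth restriction as an additive term for differentiation, and with sex or growth restriction as the other term within the 16 differentiated libraries. Sets were compared in Python 3.11.15 (pandas 2.3.3, scipy 1.17.1) with no test. The scripts were tested on simulated data. The members and lists were chosen with earlier results of these data known.

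Named genes were list members, the 10 most different genes in each direction without overlap between the sets, the 10 largest rises and falls present in every differentiated library with sets within 0.5, and the 10 highest rho. A further 14 genes in the closing section were chosen after their values were seen. Alternatives changed the pseudocount, filter, normalization, summing, covariates and libraries. No genome or sequence was used here. G0S2, AQP7, AGPAT2, DGAT1, GK, FABP5, ACSL6, FADS2, SREBF1, LEP, DIO2, TSC22D3, MT2A and MKI67 were not analysed here. A few items that the rules name are not reported here.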

Additional observations from a re-analysis of the deposited data

Results flagged for a closer look

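Within the sets of 8, the highest or lowest library was set against its nearest neighbour by Dixon's gap ratio for the 39 genes of the naming rule and for library properties. Of 84 such groups 14 were beyond the 95% limit, where chance flags about 1 in 20 groups. Values are log2(value + 1). FCD replicate 4 was far below the other low libraries in CIDEC (0.77), EPHX2 (4.97) and MST1R (3.00), and it is the library lowest in ADIPOQ. FCD replicate 2 was far below the other low libraries in FKBP5 (12.01) and above them in CNRIP1 (7.97), and its span slope (-0.32) was the lowest of the low set. In the high set MCD replicate 2 was lowest in DGKA (6.87) and RARG (4.21) and highest in SMIM3 (9.84), MCD replicate 3 was lowest in CD248 (7.36), MCD replicate 1, the library next to the boundary, was lowest in NETO1 (3.85), FFGRD replicate 3 was lowest in ZNF317 (5.22) and MFGRD replicate 1 was highest in FAM107A (8.40). MFGRD replicate 3 was lowest in HSPB6 (2.31) in the low set.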

How the results depend on the processing

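No call of the differentiation test on a named or listed gene changed direction. Of 201 differences between the sets 64 changed sign in at least 1 alternative, 63 of them within 0.5 in size, such as NPR3 (0.25, -0.19 within groups) and ACSL5 (0.33, -0.26 for single transcripts), and the other was TPM2. In the differentiation test calls ran from 2567 (filter of 50) to 4025 (replicate block with the span slope as a covariate), against 3307, and leaving out single libraries gave 3151 to 3340. The replicate block alone gave 3757. Same-numbered libraries before and after differentiation correlated by 0.167 to 0.705 in 15 of 16 cases and by -0.43 for FFGR replicate 2, and 13 of 16 correlated best with their own number, which is a hint from the data. The labels tie no number to an animal, and 1 pair ran opposite, so the fit without the block was kept. The block gained 454 calls and lost 4. Of 118 listed genes not called without it, 13 were called with it, among them RARRES2 (adjusted p = 0.012), CHAC1 (0.030), FAM107A (0.0044), PC (0.037) and LHX8 (0.016). Growth restriction and sex gave 0 calls in every setting. Counts of genes differing between the sets moved more. Genes over 1 higher (535) became 271 with values centred within groups, 888 with no filter, 819 for single transcripts and 318 without the 3 libraries of low span slope. Genes over 1 lower (761) became 146 centred, 487 with a pseudocount of 10, 189 with the slope as a covariate, 2240 for single transcripts and 170 without the 3 libraries. Genes without overlap (18 higher, 2 lower) became 0 and 0 centred and 107 and 11 without the 8th and 9th libraries, and the lower count became 0 for single transcripts and 7 without the 3 libraries. Leaving out single libraries gave 426 to 727 genes over 1 higher, 359 to 1179 over 1 lower, 17 to 87 without overlap higher and 2 to 7 lower. The extremes came from FFGRD replicate 3 (426 and 359), FCD replicate 3 (1179) and MCD replicate 1 (727, 1173, 87 and 7), which sits at the boundary. MCD replicate 4 gave 478 lower genes. Of single-gene differences between the sets 14 moved by more than the spread and 5564 did not, among them FASN (0.33) and PPARG (0.81) for single transcripts and ELOVL6 (1.93), EPHX2 (1.75) and EHHADH (0.95) centred within groups, where all 4 MCD libraries are in the high set and centring removes their part. Of single-gene changes with differentiation 7450 kept their call and 224 lost it with the same direction. The mean within groups, added after seeing the data, gave 721 and 844 genes. Depth limits genes near 3 reads. The deposited values hold no raw counts.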

Other observations

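Several genes outside the adipocyte lists were far above preadipocytes in some or all differentiated libraries. They were chosen after their values were seen. NR5A2, a nuclear receptor of steroid and bile acid tissues, lay at or under 3 reads in all preadipocyte libraries and at 6.75, 132 and 472 in the high set and 22.6, 142 and 1913 in the low set, a rise of at least 30.6-fold over that level. CYP11A1, which starts steroid synthesis from cholesterol, ran from 0 to 259 in the high set and from 0 to 837 in the low set, with all preadipocyte libraries at or under 3 reads (at least 4.70-fold). The steroidogenic genes were highest in FCD replicate 1, where CYP11A1 was 837, HSD3B1 684 and STAR 509. CYP17A1 did not share this order and measured 3.35, 31.1 and 70.1 in the high set against 0, 1.22 and 6.23 in the low set, and 0 in all preadipocyte libraries. The neuropeptide gene OXT measured 23.7 to 276 (median 126) in the high set, at least 44.2 (median 177) in the low set, and at most 3.61 in preadipocytes, and rose by 6.50 ± 0.38 (adjusted p = 1.8e-13, limma).

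ITIH5, a hyaluronan-binding matrix protein, had the largest lean to the low set among the strong risers named here. It measured 74.0, 486 and 1278 in the high set, 111, 4420 and 6770 in the low set, and 0, 1.24 and 15.9 in preadipocytes, a rise of 8.46 ± 0.66 (adjusted p = 5.7e-11, limma) with a difference of -2.44 between the sets, or -2.11 without the 3 libraries of low span slope. Its value in FCD replicate 4 was 5870. The low set was not uniform, since FCD replicate 2 (111) and MFGRD replicate 3 (152) were near the bottom of the high set. PAPPA2, a protease that frees insulin-like growth factors, rose by 7.94 ± 0.71 (adjusted p = 6.1e-10, limma) with a difference of -1.48 that became -0.60 without the 3 libraries, and the imprinted gene PEG10 by 2.62 ± 0.54 (adjusted p = 0.00031, limma) with -1.90 and -0.92. IGF2 rose by 6.72 ± 0.65 (adjusted p = 2.5e-09, limma) at either ADIPOQ level (difference 0.71). ADCY5 (3.46), ATP12A (3.48), GLYAT (3.94) and the sterol exporter ABCG1 (2.07) were higher in the high set, and PPP1R1A (1.20), COL28A1 (0.41), NKD1 (0.14) and SPATA18 (-0.51) overlapped between the sets.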
